A study of Mus musculus with 6 samples.

Results

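The genes described here encode subunits of ion channels and of neurotransmitter receptors. They were taken by symbol from a table of 466 genes that differed between microglia of Piezo1 knockout and control mice. A gene was included when it was protein coding and its symbol began with the prefix of a potassium (Kcn), sodium (Scn), calcium (Cacn), pacemaker (Hcn) or TRP channel, of a ryanodine receptor (Ryr), or of a glutamate receptor (Gria, Grik, Grin, Grm), among others. Kcnj13 was left out. Described here are 14 of the 466 genes: 4 potassium channel genes, 2 sodium channel genes, 2 calcium channel genes, 1 TRP channel gene, 1 ryanodine receptor gene and 4 ionotropic glutamate receptor genes. No listed protein-coding gene carried the Hcn, Grik or Grm prefix.

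The samples were of poly(A) RNA from freshly isolated microglia, the macrophages that live in the brain tissue, of adult mice. The knockout group (Piezo1MGKO; FAD, 3 samples) carried Cx3cr1CreER-EYFP, floxed Piezo1 (Piezo1fl/fl) and the 5×FAD transgenes. The control group (Piezo1fl/fl; FAD, 3 samples) was of male littermates with floxed Piezo1 and 5×FAD, for which no Cre allele was named. The strain was C57BL/6N, and tamoxifen (20 mg/kg, 4 daily doses from 4.5 weeks of age) was given to knockout and control mice alike. 5×FAD is a model of Alzheimer's disease in which mutant human disease transgenes are driven by the neuronal Thy1 promoter. The Cre allele is expressed from the Cx3cr1 locus, which is active in microglia and other macrophages, and it was named for the knockout group alone, so loss of Piezo1 and presence of that allele cannot be told apart. The titles call each sample a biological repetition. How many mice gave each sample was not stated, and the spread between samples may also hold a technical part.

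Ion channels are membrane proteins that let selected ions cross when the voltage changes, a ligand binds or the membrane is stretched. Piezo1 itself is a stretch-gated cation channel. In the brain, voltage-gated sodium, calcium and potassium channels shape the electrical signals of neurons, and AMPA and NMDA receptors convert released glutamate into currents at synapses. Epithelia such as the choroid plexus, which secretes cerebrospinal fluid, use other potassium and cation channels for fluid and ion transport.

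The values are normalised read counts, that is, reads per gene divided by a size factor of the sample. The table holds genes past 2 limits in the authors' own comparison, an unadjusted p under 0.05 and a log2 fold change beyond 1 in either direction, so the 14 genes were listed because they differed. The differences below are a description of these samples and support nothing further. Fold changes are differences of mean log2(normalised reads + 1), knockout minus control, from a limma fit over all 466 genes, and adjusted p-values cover the 466. These understate changes of low genes.

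Of the 14 genes, 13 had a lower mean in the knockout and 1, Kcnj12, a higher one. Of all 466 listed genes, 88.0% had the lower mean in the knockout. The median log2 fold change of the 14 was -2.01, against -1.99 over the 466. At a limma adjusted p of 0.05, 0 of the 14 genes passed and 0% of the 466, and edgeR on recovered reads likewise called 0 and 0%. At an unadjusted p under 0.05, limma had 7 of the 14 genes, where the share over the 466 was 52.6%, and edgeR also 7, where it was 52.8%. DESeq2 on the same reads called 1 of the 14, Grin1 (adjusted p = 0.0330), and 10.5% of the 466, all of them lower. Over its 14 alternative settings the adjusted p of Grin1 ran from 0.0324 to 0.357. In the authors' deposited table, 0 of the 14 passed an adjusted p of 0.05, against 3.00% of the 466, and the smallest value was 0.218, for Grin1. The unadjusted p of the 14 ran from 0.00041 for Grin1 to 0.0465 for Trpm3 in the authors' deposited table. All 3 knockout values lay below all 3 controls for 5 genes (35.7%), against 45.3% of the 466. These 5 were Grin1, Gria3, Scn2a, Cacna2d1 and Ryr2. An exact two-sided permutation test of 3 against 3 samples cannot give a p under 0.1. None of these shares was far above that over all listed genes.

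**Figure D1:**
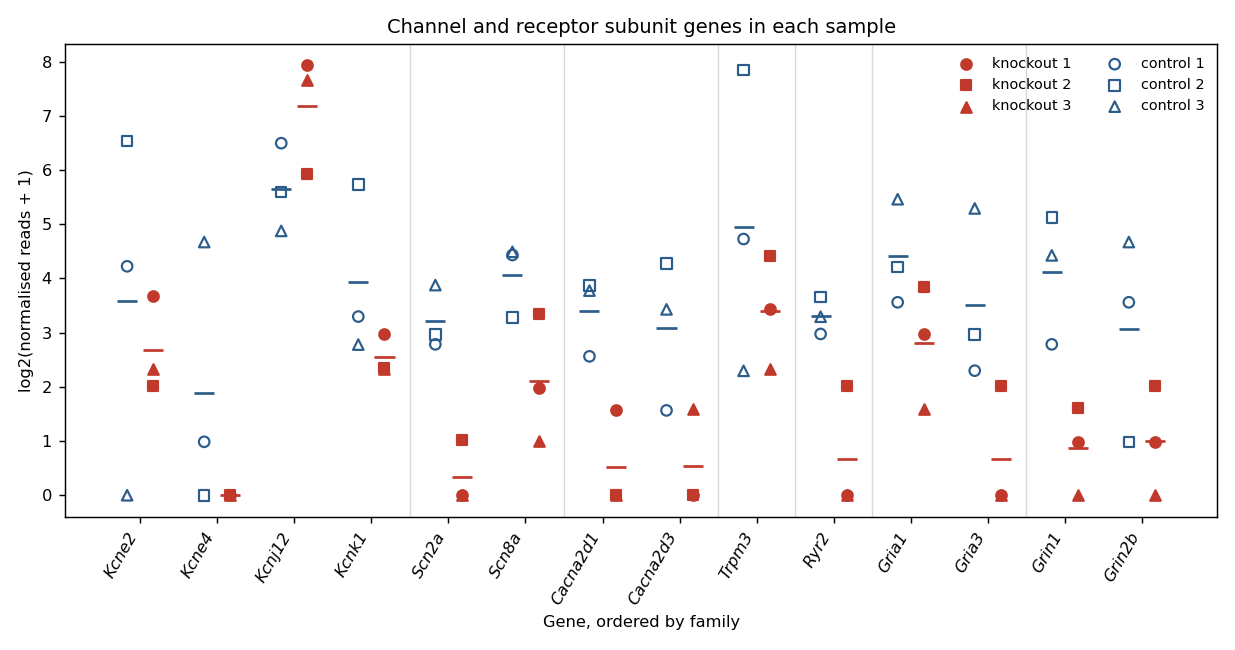
Levels of the 14 channel and receptor subunit genes as log2(normalised reads + 1), with filled red symbols for the 3 knockout samples, open blue symbols for the 3 controls, the symbol shape for the sample number and a bar for the mean. The 13 genes other than Kcnj12 have the higher mean in the controls, and for Trpm3, Kcne2 and Kcnk1 control 2 (squares) stands far above controls 1 and 3.

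Levels were low. The control mean of the 13 lower genes ranged from 8.48 normalised reads for Kcne4 to 86.4 for Trpm3, with a median of 16.3. In the knockout, 15 of the 39 values of these genes were 0, against 2 of 39 in the controls. The genes were listed because they differed, and the share of zeros over all lower genes was not counted. Their knockout medians were 0.983, 3.06 and 0 normalised reads, in sample order, against 1.97, 3.06 and 1.01 over all 410 lower genes. Several knockout totals thus rested on few reads.

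The NMDA receptor genes stood lowest in knockout 3. Grin1 (ENSMUSG00000026959), which encodes the subunit that every NMDA receptor needs, had 0.983, 2.04 and 0 normalised reads in knockouts 1, 2 and 3. The controls stood at 5.89, 33.9 and 20.5 normalised reads of Grin1, in the same order. These groups did not overlap, and the lowest control was still above the highest knockout. The log2 fold change was -3.25 (SE 0.88, limma adjusted p = 0.0533), the most negative of the 14. It rested on 3 reads in the knockouts and 62 in the controls. Grin2b, a glutamate-binding NMDA subunit gene of early development and the forebrain, had 0.983, 3.06 and 0 normalised reads in the knockouts. Controls 1, 2 and 3 had 10.8, 0.970 and 24.5, so control 2 lay within the knockout range and the groups overlapped. Its log2 fold change was -2.07 (SE 1.05, limma adjusted p = 0.118), or -1.27 without control 3 and -3.11 without control 2.

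The AMPA receptor genes were highest in control 3. Gria3, a subunit gene on the X chromosome, had 0, 3.06 and 0 normalised reads in the knockouts, in sample order, and 3.92, 6.79 and 38.2 in the controls. The groups did not overlap, but control 1 was close to knockout 2. Control 3 held 78.1% of the control total of Gria3, whose log2 fold change was -2.84 (SE 1.00, limma adjusted p = 0.0581). Gria1, a subunit gene whose product is inserted into synapses in long-term potentiation, had 6.88, 13.3 and 2.02 normalised reads in the knockouts and 10.8, 17.5 and 43.1 in the controls. Knockout 2 lay above control 1, so the groups overlapped. Its log2 fold change was -1.61 (SE 0.86, limma adjusted p = 0.128), or -1.0 without knockout 3.

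Summed over the 4 glutamate receptor genes, the knockouts had 8.85, 21.4 and 2.02 normalised reads and the controls 31.4, 59.2 and 126, each in sample order. Each control sum was above each knockout sum, and the highest knockout was knockout 2.

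Both sodium channel genes encode pore-forming subunits of axons. Scn2a, the channel of the immature axon initial segment and of unmyelinated axons, had 0, 1.02 and 0 normalised reads in the knockouts and 5.89, 6.79 and 13.7 in the controls. These groups did not overlap. Scn2a had a limma log2 estimate of -2.87 (SE 0.74, adjusted p = 0.0533). It rested on 1 read in the knockouts and 27 in the controls, a ratio of 26.2 with an exact 95% interval from 4.32 to 1074 that covers counting error only. Scn8a, the channel of mature nodes of Ranvier, had 2.95, 9.19 and 1.01 normalised reads in the knockouts and 20.6, 8.73 and 21.5 in the controls. Knockout 2 and control 2 had 9 reads each, so the groups overlapped, and the log2 fold change was -1.96 (SE 0.85, limma adjusted p = 0.0885).

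No gene of a voltage-gated calcium channel pore was listed. Cacna2d1 and Cacna2d3 encode auxiliary subunits that carry such channels to the cell surface, and the Cacna2d1 product is a binding site of gabapentin. Cacna2d1 had 1.97, 0 and 0 normalised reads in the knockouts and 4.91, 13.6 and 12.7 in the controls. The groups did not overlap, and the log2 fold change was -2.88 (SE 0.81, limma adjusted p = 0.0533). Cacna2d3 had 0, 0 and 2.02 normalised reads in the knockouts and 1.96, 18.4 and 9.78 in the controls. Here control 1 and knockout 3 had 2 reads each, so the groups overlapped. For Cacna2d3 the log2 fold change was -2.56 (SE 0.92, limma adjusted p = 0.0617). Ryr2, which encodes the channel that releases calcium from the endoplasmic reticulum of heart and brain cells, was the most even gene across the controls, with 0, 3.06 and 0 normalised reads in the knockouts and 6.87, 11.6 and 8.81 in the controls. These groups did not overlap. Its highest control was 1.69 times its lowest, and its log2 fold change was -2.64 (SE 0.82, limma adjusted p = 0.0533).

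Trpm3, Kcne2 and Kcnk1 were highest by far in control 2, while control 1 also stood above every knockout. With controls 2 and 3 both left out, their log2 fold changes were -1.33, -1.54 and -0.74, in that order. Trpm3, a calcium-permeable channel opened by heat and the steroid pregnenolone sulfate and known from the choroid plexus, had 9.83, 20.4 and 4.05 normalised reads in knockouts 1, 2 and 3. Controls 1, 2 and 3 had 25.5, 229.9 and 3.91 of Trpm3. Control 3 thus stood level with knockout 3, at 4 reads each, and below the other knockouts. Control 2 held 88.7% of the control total. For Trpm3 the log2 fold change was -1.56 (SE 1.27, limma adjusted p = 0.258), -0.11 without control 2, -1.03 without knockout 3 and -2.89 without control 3. Kcne2, an auxiliary potassium channel subunit of the choroid plexus epithelium and the stomach, had 11.8, 3.06 and 4.05 normalised reads in the knockouts and 17.7, 92.1 and 0 in the controls. Control 3 had no read of Kcne2, and control 2 held 83.9% of the control total. The log2 fold change was -0.91 (SE 1.44, limma adjusted p = 0.543) and turned to 0.57 without control 2, while it was -2.70 without control 3, -1.41 without knockout 1, -0.58 without knockout 2 and -0.59 without control 1. Kcnk1, a tandem-pore background potassium channel, had 6.88, 4.08 and 4.05 normalised reads in the knockouts and 8.83, 52.4 and 5.87 in the controls. Control 3 lay below knockout 1, so the groups overlapped, and the log2 fold change was -1.39 (SE 0.90, limma adjusted p = 0.178), or -0.49 without control 2. Kcnj13, the inward rectifier of choroid plexus epithelium that the rule left out, also peaked in control 2, with 7.85, 72.7 and 12.7 normalised reads over the 3 controls.

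Kcne4, an auxiliary subunit gene that damps voltage-gated potassium currents, had no read in any knockout. Its controls stood at 0.981, 0 and 24.5 normalised reads, in sample order. Control 3 held 96.1% of the control total. Taking 3 reads in each knockout library as the limit that a count of 0 allows, Kcne4 was at least 2.81-fold lower. Without control 3 the control mean was 0.491 normalised reads, under that limit, and no fold can be given. Its log2 fold change was -1.89 (SE 1.10, limma adjusted p = 0.151), or -0.49 without control 3.

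Kcnj12 (ENSMUSG00000042529), an inward rectifier potassium channel of the kind that holds cells near their resting potential, was the 1 member with a higher mean in the knockout and the one with most reads. Knockouts 1, 2 and 3 had 243, 60.2 and 202 normalised reads of Kcnj12. Controls 1, 2 and 3 had 89.3, 47.5 and 28.4. Knockouts 1 and 3 stood above all controls, while knockout 2 lay below control 1, so the groups overlapped. The knockout mean was 168 ± 95.9 and the control mean 55.1 ± 31.1 normalised reads (SD, n = 3 each), which is 3.06-fold higher in the knockout. On the log2 scale the difference was 1.52 (SE 0.74, 95% interval from -0.13 to 3.17, limma adjusted p = 0.109). In the authors' deposited table, Kcnj12 had a log2 fold change of 1.61 and an adjusted p of 0.436.

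**Figure D2:**
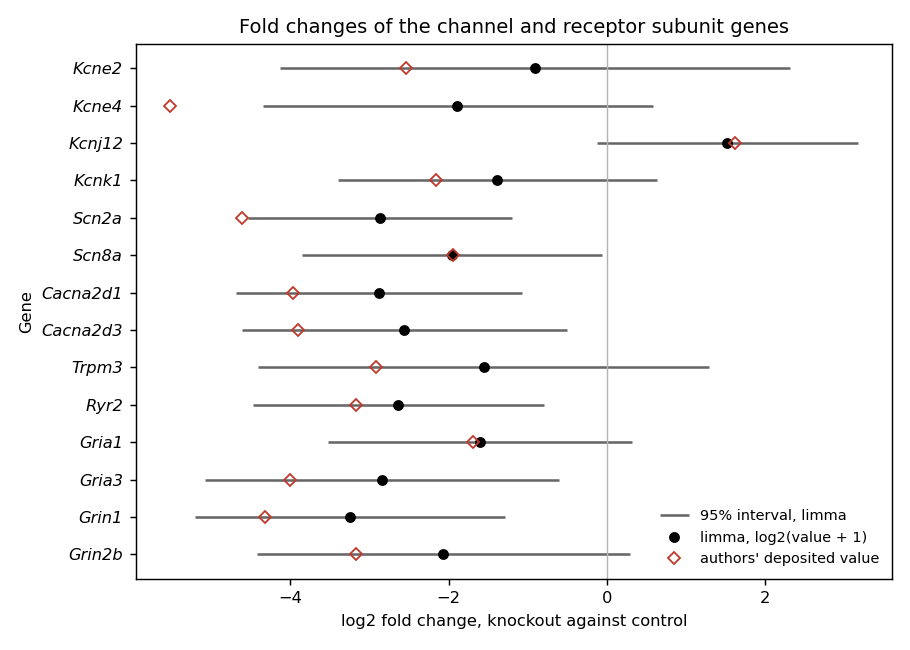
Log2 fold change of each gene, knockout against control, with black dots and bars for the limma estimate on log2(value + 1) and its 95% interval, and red diamonds for the authors' deposited value. Intervals of 7 genes lie wholly below 0, that of Kcnj12 runs from -0.13 to 3.17, and the deposited values of Kcne4 (-5.52) and Scn2a (-4.61) lie below their limma intervals, from -4.35 to 0.58 and from -4.53 to -1.20.

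Promoter sequence was looked at for the members with a RefSeq window, using the 250 bases before each RefSeq transcription start (GRCm38.p6). RefSeq windows matched 11 of the 14 genes, with 15 windows in all. Cytosine followed by guanine (CG), the pair that marks promoters of the CpG island kind, occurred 27 times in the window of Grin1, 36 times for Cacna2d1, 30 for Cacna2d3, 30 for the outer start of Scn8a and 14 for Ryr2. It occurred 2 times at the outer start of Scn2a and 9 times at the inner one, 9 times at the inner start of Scn8a, 7 times for Kcne4 and 4 times for Kcnj12. The median over all 32851 windows was 6. Kcne2 had 9 at its outer start and 1 at its inner start and Kcnk1 0, while both Trpm3 windows lay above the median, at 17 and 9. Thus these 3 genes, all highest by far in control 2, did not share a low count. The letters GGGCGG on either strand were in 3 of the 15 windows (Cacna2d1, Cacna2d3 and Kcne2), against 32.7% of all windows. TAATCC, the core recognised by OTX factors, was in 0 of the 15 on either strand, against 6.25% of all windows, and TATAAA in 1, the inner Scn2a window, against 12.4%. GGGCGG itself contains a CG. Such matches are a description of the sequence. The 4 windows below begin with a CG-rich start of a receptor gene and of a calcium channel gene. Next come the outer start of a gene highest by far in control 2 and the start of the 1 higher gene, in that order. All windows are written 5′ to 3′ on the strand of the gene, with each CG in capitals. They are chr2:25319188-25319437 (minus), chr5:15934441-15934690 (plus), chr16:92292139-92292388 (plus) and chr11:61065554-61065803 (plus). The Kcnj12 start used by RefSeq lies 43240 bases inside the span given in the deposited table.
Grin1: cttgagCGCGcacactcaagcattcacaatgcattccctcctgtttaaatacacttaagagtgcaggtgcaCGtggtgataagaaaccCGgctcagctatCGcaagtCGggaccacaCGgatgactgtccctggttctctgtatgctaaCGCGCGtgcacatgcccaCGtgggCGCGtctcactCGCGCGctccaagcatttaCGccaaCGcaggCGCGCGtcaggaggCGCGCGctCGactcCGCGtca
Cacna2d1: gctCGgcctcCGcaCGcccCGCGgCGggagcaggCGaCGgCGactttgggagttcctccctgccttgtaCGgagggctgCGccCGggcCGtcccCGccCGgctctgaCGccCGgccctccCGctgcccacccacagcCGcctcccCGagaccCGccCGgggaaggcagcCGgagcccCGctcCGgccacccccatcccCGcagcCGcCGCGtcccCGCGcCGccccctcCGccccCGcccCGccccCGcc
Kcne2: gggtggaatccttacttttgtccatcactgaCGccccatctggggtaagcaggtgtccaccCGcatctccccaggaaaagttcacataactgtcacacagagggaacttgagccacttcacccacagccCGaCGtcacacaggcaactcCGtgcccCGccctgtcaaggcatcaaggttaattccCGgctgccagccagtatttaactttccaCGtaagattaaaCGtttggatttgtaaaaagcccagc
Kcnj12: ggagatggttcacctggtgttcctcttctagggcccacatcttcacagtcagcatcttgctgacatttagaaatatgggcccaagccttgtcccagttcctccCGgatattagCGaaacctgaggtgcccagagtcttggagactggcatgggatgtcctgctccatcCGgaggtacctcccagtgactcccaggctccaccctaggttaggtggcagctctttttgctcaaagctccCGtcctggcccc

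The controls did not share 1 pattern. Control 2 was the highest control for 7 of the 13 lower genes and control 3 for the other 6. Over all 410 lower genes, control 2 was highest for 42.2%, control 3 for 54.6% and control 1 for 3.17%. Control 2 stood at 58.7 times control 3 for Trpm3 and at 8.92 times for Kcnk1, and Kcne2 had no read in control 3. It was also the higher of these controls, by less, for Cacna2d3 (1.88 times), Grin1 (1.65 times), Ryr2 (1.32 times) and Cacna2d1 (1.07 times), while control 3 exceeded control 2 for Grin2b, Gria3, Gria1, Scn8a, Scn2a and Kcne4. Trpm3, Kcne2 and Kcnk1, grouped here after their values were seen, summed to 28.5, 27.6 and 12.1 normalised reads in the knockouts and to 52.0, 374 and 9.78 in the controls, each in sample order. The other 10 lower genes, of which 4 were highest in control 2 and 6 in control 3, summed to 72.6, 118 and 217 in the controls and to 13.8, 34.7 and 5.06 in the knockouts. For the first set control 3 was below every knockout, and for the second every control was above every knockout. The sets were split on these same values and their genes listed as lower on these samples, so this contrast says little.

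The 466 genes held some markers of neurons, choroid plexus and ependyma, astrocytes, and mural cells and fibroblasts. These had passed the same limits as the 14 genes, and 88.0% of the 466 were lower, so a shared direction says little. The highest control differed in part, as Grin1, Ryr2, Cacna2d1 and Cacna2d3 were highest in control 2 and the neuron markers in control 3. Controls 2 and 3 had 35 and 21 reads of Grin1, 12 and 9 of Ryr2, 14 and 13 of Cacna2d1 and 19 and 10 of Cacna2d3. With so few reads, the higher control of these genes is uncertain. Of 24 neuron markers, 7 were listed, all with a lower mean in the knockout and all highest in control 3. Their sum was 31.5, 86.8 and 16.2 normalised reads in knockouts 1, 2 and 3. Controls 1, 2 and 3 had sums of 83.4, 177 and 821. Thy1, whose promoter also drives the 5×FAD transgenes, was 542 of the 821, and without it the control sums were 65.7, 134 and 279. Knockout 2 was the highest knockout for the neuron markers, as it was for the 10 lower genes. Over all 410 lower genes the knockout medians were 1.97, 3.06 and 1.01 normalised reads, in sample order. Thus that order was not particular to either set. Slc17a7, the vesicular glutamate transporter of excitatory neurons, had 9.81, 15.5 and 46.0 normalised reads in the controls and 0.983, 7.15 and 0 in the knockouts. Of 12 choroid plexus and ependyma markers, 7 were listed, all lower and all highest in control 2, with sums of 3487, 19196 and 362 normalised reads over the 3 controls. The knockout sums of these markers were 2034, 886 and 589.8. The 7 include Kcnj13. Ttr, named here after its values were seen, made up 73.2% to 96.7% of each sum, and without it the controls had sums of 118, 625 and 96.9 and the knockouts 78.6, 39.8 and 27.3. Control 3 was the lowest of the 6 samples in the choroid plexus sum with Ttr, though above every knockout without it, and was the lowest also in the sum of Trpm3, Kcne2 and Kcnk1. Of the other markers, 2 of 12 for astrocytes, 1 of 12 for mural cells and fibroblasts, 0 of 12 for oligodendrocytes and their precursors and 0 of 10 for endothelium were listed. The mural marker Acta2 stood at 26.5, 22.3 and 189 normalised reads over the controls and at 25.6, 4.08 and 26.3 over the knockouts. Control 3 was the highest control for Acta2 and Kcne4, as for 54.6% of the 410 lower genes. The part of these cell types in the channel and receptor values was not tested, and markers that were not listed were not analysed here. In such bulk samples, fewer cells of a type and less RNA per cell cannot be told apart. Of 14 microglia markers, Cx3cr1 was the 1 listed, with a mean of 31895 normalised reads in the knockout and 66461 in the controls. Cx3cr1 is also the locus of the Cre allele named for the knockout group alone. The cell type label was thus not checked across the groups by a marker free of that allele.

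**Figure D3:**
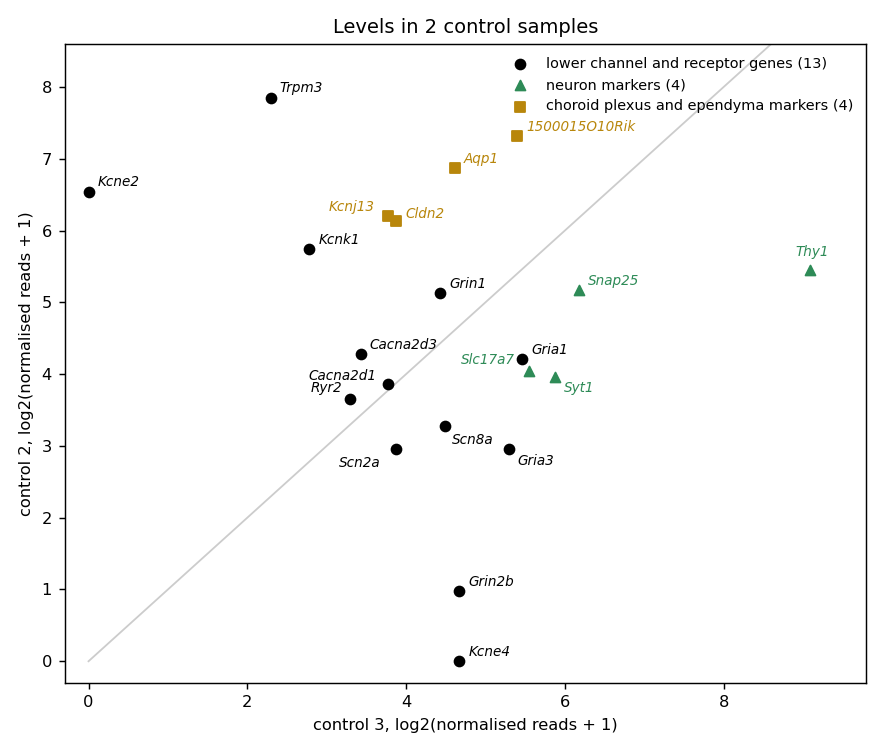
Level in control 2 against control 3, both as log2(normalised reads + 1), for the 13 lower channel and receptor genes (black), the 4 neuron markers (green) and the 4 choroid plexus and ependyma markers (ochre) with the largest fold change, with a grey line of equal levels. Trpm3, Kcne2 and Kcnk1 lie far above the line, Cacna2d3, Grin1, Ryr2 and Cacna2d1 less far above it on the same side as the choroid plexus markers, and Kcne4, Grin2b, Gria3, Gria1, Scn8a and Scn2a lie below it, as do the neuron markers.

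Per kilobase of gene length, the control level ran from 20.7 normalised reads for Kcne2 to 0.316 for Ryr2. Kcne2 (range over the controls 0 to 52.1), Kcnj12 at 20.0 (10.3 to 32.5), Trpm3 at 10.7 (0.486 to 28.5) and Kcnk1 (2.63 to 23.4) led the order, and their ranges overlapped. Gria1 followed at 3.93 normalised reads per kilobase, then Kcne4 at 3.19 and Grin1 at 2.07. Gria3, Cacna2d3, Scn8a, Cacna2d1, Scn2a and Grin2b lay between 1.65 and 0.486, and each overlapped its neighbours in that order. Ryr2, the lowest, ranged from 0.239 to 0.404 and overlapped Grin2b. In the knockout, Kcnj12 had 61.3 normalised reads per kilobase, the highest of the 14, while Scn2a had 0.0267. On the same scale Cx3cr1, the microglial gene in the table, had 14753 in the controls. The length given for Trpm3, 8061 bases, is shorter than the 24437 exonic bases of its gene in GENCODE M21, so its value per length is the least certain. The other 13 lengths were equal in both.

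**Figure D4:**
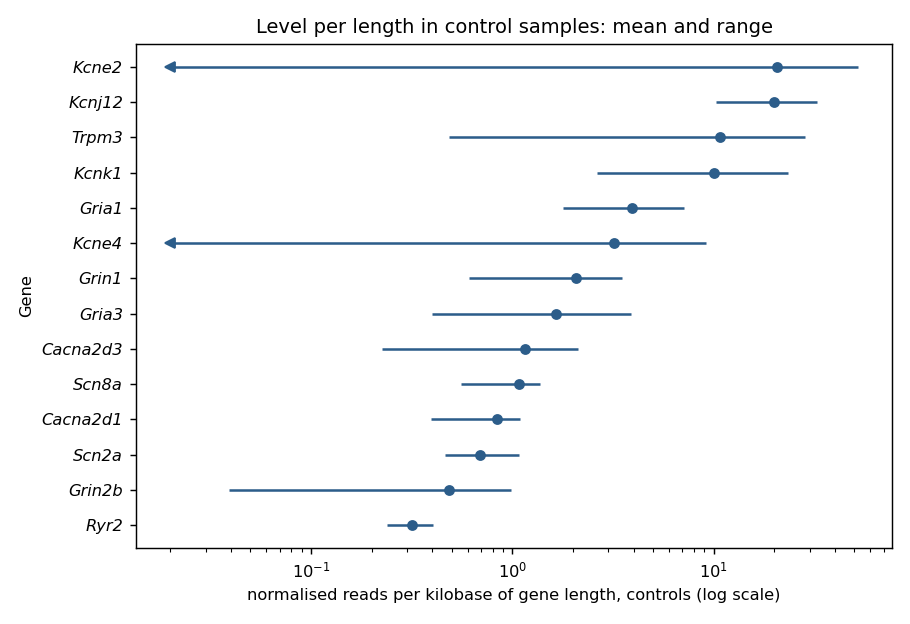
Normalised reads per kilobase of gene length in the 3 controls on a log axis, with dots for the mean and bars from the lowest to the highest control; an arrowhead marks a lowest control of 0. Kcne2, Kcnj12, Trpm3 and Kcnk1 stand highest, Kcne2 at 20.7, and Ryr2 lowest, at 0.316.

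Lengths of the 14 genes ran from 1767 bases for Kcne2 to 28790 for Ryr2, with a median of 9210 against 4538 for the 424 listed protein-coding genes. The 4 potassium channel genes, with 1767 to 2750 bases, were shorter than 4538. The 14 genes lie on 12 chromosomes (GRCm38). Gria1 spans chr11:57011387-57330244 and Kcnj12 chr11:61022564-61071131. Grin1 spans chr2:25291181-25319187 on the minus strand, and 1307 of its exonic bases (13.5%) are shared with Grin1os on the opposite strand. Use of strand in the counting was not given in the sources, so reads in those bases cannot be assigned. Kcnk1 shares 179 exonic bases (8.01%) with Gm45875 on the opposite strand. Trpm3 and Grin2b share under 2% with any 1 such gene.

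Lists of genes from the same pathways were also looked up among the 466. The number of genes compared before the selection was not known, so these counts have no share to stand beside. Of 33 channels and receptors described in microglia, among them Piezo1, P2rx7 and Kcnk13, 0 were listed, and of 76 channels of other families also 0. Piezo1 and other genes outside the table were not analysed here, so the genotype labels were not checked by Piezo1. Of 50 channel partners and synaptic scaffolds, 4 were listed, all with a lower mean and all highest in control 2. Of these 4, limma called 0, with 2 at an unadjusted p under 0.05, where the share over the 466 was 52.6%. Nrxn3, a presynaptic adhesion gene, had 1.97, 0 and 0 normalised reads in the knockouts and 5.89, 9.70 and 7.83 in the controls, with groups that did not overlap and a limma log2 fold change at -2.59 (adjusted p = 0.0533). Ank3, which encodes the anchor of sodium channels at the axon initial segment, had a log2 fold change of -2.03. That of the postsynaptic scaffold gene Dlgap1 was -1.99, and that of Dpp6, an auxiliary gene of A-type potassium channels, -1.77. Of 33 genes of transmitter synthesis and transport, Slc17a7 was the 1 listed.

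Of 40 ion pump and exchanger genes, 3 were listed, all highest in control 2. The sodium pump subunit gene Atp1b1 stood at 61.0, 35.7 and 6.07 normalised reads in the knockouts and at 53.0, 213 and 117 in the controls, each in sample order. The plasma membrane calcium pump gene Atp2b3 had 48.1, 206 and 7.83 in the controls, and the sodium pump regulator gene Fxyd1 15.7, 76.6 and 2.94. Control 3 of both Atp2b3 and Fxyd1 stood near or below the knockouts, as for Trpm3. Of 51 G protein coupled transmitter receptors, 3 were listed, all with a lower mean. Htr2c, the serotonin receptor known for its high level in choroid plexus, stood at 27.5, 158 and 3.91 normalised reads over the controls. The cannabinoid receptor gene Cnr1 had 1.96, 2.91 and 10.8 in the controls, and the neuropeptide Y receptor gene Npy2r 0.981, 4.85 and 5.87. limma called 0 of these 6 pump and receptor genes, with 3 at an unadjusted p under 0.05, where the share over the 466 was 52.6%.

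Leaving out 1 sample at a time kept the sign of 13 of the 14 genes, the exception being Kcne2. The genes had been selected on these same 6 samples, so a kept sign says little. Grin1 ranged from -3.91 to -2.74 in log2 fold change and Scn2a from -3.21 to -2.53. Kcnj12 ranged from 1.13 to 2.14. Without control 1, limma called 6 genes, which were Scn2a, Cacna2d1, Cacna2d3, Ryr2, Gria3 and Grin1, and 196 of all 466. Without control 3 it called 0 of the 14 genes and 32 of the 460 that could be fitted, and without any other single sample 0 of 466. With controls 2 and 3 both left out, 12 of the 13 genes that could be fitted had a negative log2 fold change, Kcnj12 being the other, and the median was -1.63. Kcne4 could not be fitted there because it had no spread. The table had been selected with control 1 among the controls, so this says little on the direction.

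**Figure D5:**
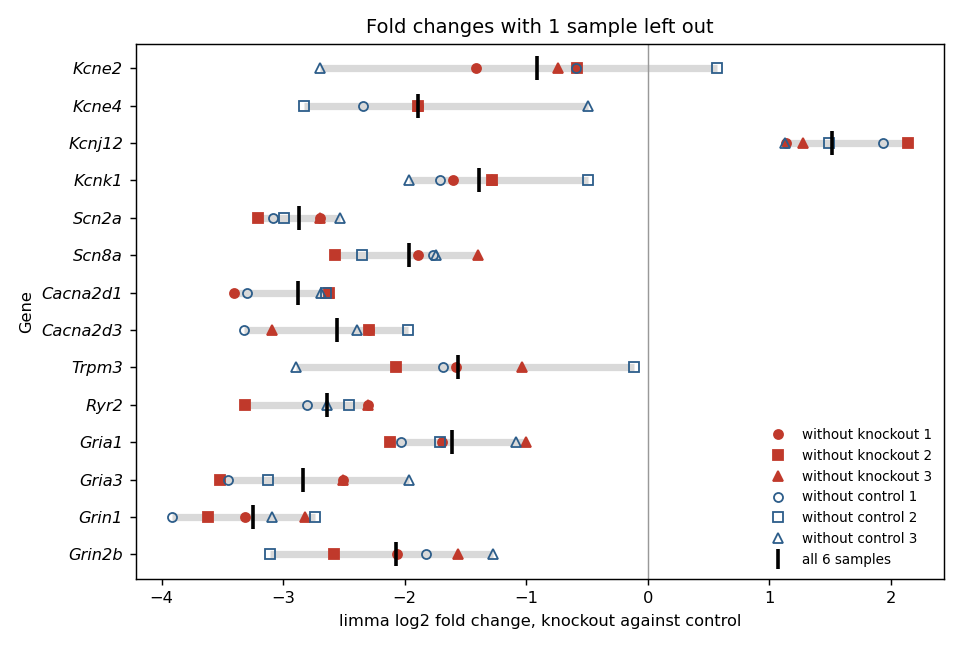
Limma log2 fold change of each gene with all 6 samples (black bar) and with each sample left out in turn (red filled symbols for a knockout, blue open symbols for a control, shape for the sample number). Kcne2 crosses 0 without control 2, where Trpm3 reaches -0.11 and Kcnk1 -0.49, while Grin1, Scn2a, Cacna2d1 and Ryr2 stay below -2.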

How the data were processed

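Per the labels' protocols, poly(A) RNA of isolated microglia was sequenced as paired reads on an Illumina NovaSeq instrument. The submitters' processing notes name HISAT2, DESeq2, RSEM 1.2.30, cutadapt 1.11, R 3.6.1 and the build GRCm38, without their roles. The deposited table gives normalised read counts made by the authors (a signal value that is never negative), with the authors' log2 fold change, p-value and adjusted p-value, for 466 selected genes. All 2796 values were whole multiples of the value of 1 read in their sample (100% whole, tolerance 1e-06), with size factors from 0.979 to 1.03. Library depth is unknown. The members held 120 to 557 recovered reads per sample.

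limma 3.58.1 (R 4.3.3, mean-variance trend) was run on log2(value + 1) with Benjamini-Hochberg adjustment over the 466 genes. Genes with no spread in a fit were left out of it. DESeq2 1.42.0 and edgeR 4.0.16 took the recovered reads and their size factors. All 3 were run on simulated counts that had 1 shared spread for all genes and no selection of genes by their difference. These settings differ from the deposited data, so the run says little on the calls made here. No rescaling on the listed genes was tried, since they were selected for their difference. Groups followed the sample titles. Alternatives were pseudocounts of 0.5 and 5, a mean of at least 5 normalised reads, reads without size factors, a replicate block and samples left out.

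The members, the 13 gene lists and the tests were chosen with earlier results of these data known. 1 further gene that the rule found is not reported here and stays in the fits only. Named genes were all members described and, per list, at most 4 listed genes with the largest absolute limma fold change. Ttr was named outside that rule. Lengths and exons were compared with GENCODE M21.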

Additional observations from a re-analysis of the deposited data

How the results depend on the processing

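With a pseudocount of 0.5, limma called 120 of the 466 listed genes and 4 of the 14 members. A pseudocount of 5 gave a median member log2 fold change of -1.26, against -2.01 at 1. edgeR gave a median member log2 fold change of -3.04 and DESeq2 one of -3.17, and DESeq2 called 49 listed genes and 1 member. Leaving out 1 sample gave 0 to 196 listed genes and 0 to 6 members, 6 to 8 members had groups that did not overlap in either direction (42.9% to 57.1%, against 58.8% to 79.0% of the 466), and the log2 fold change of Kcne2 ran from -2.70 to 0.57. Without controls 2 and 3 together, 11 members (78.6%, against 71.0% of the 466) had groups that did not overlap, where 1 control faced 3 knockouts. The replicate block called 4 listed genes and 0 members. The titles number the samples in both groups, but deviations of same-numbered samples correlated at -0.0401, -0.043 and 0.0747 over 466 genes. No sample correlated best with its own number, so they were not taken as pairs. Scn2a and Kcne4 fell under the filter on low values. Under the other settings the median moved by less than the spread between samples (SD 0.759 on the log2 scale). Read numbers were low: every member except Kcnj12 and Trpm3 had at most 132 reads over the 6 samples.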
